A study of Mus musculus with 11 samples.

Results

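Elastic fibres give the lung its recoil. A core of cross-linked elastin is laid down on a scaffold of fibrillin microfibrils; fibulins and LTBP4 bring tropoelastin and the cross-linking enzymes onto that scaffold, and lysyl oxidases join the elastin chains into an insoluble polymer. Such fibres run through the alveolar septa, the walls of airways and vessels and the pleura, and their loss is a feature of emphysema. The 10 genes followed here, of 31053 in the count matrices, encode the elastin monomer (Eln), microfibril proteins (Fbn1, Mfap4 and Ltbp4), fibulins (Fbln1, Fbln2, Fbln5 and Efemp2) and cross-linking enzymes (Lox and Loxl1). They were taken by symbol, and each matched 1 row of the matrices.

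The data were droplet single-cell 3′ RNA counts of total cells from dissociated lungs of aged mice, as unique molecular identifiers (UMIs), so that PCR copies of a molecule count once. The 11 libraries carried 4 genotype labels at the p21 locus: WT, wild type (+/+), 1 library at 18 months; p21Het, heterozygotes (+/-), 3 libraries at 19, 18 and 18 months; p21mTert (+/mTert), 5 libraries, the first at 20 months and the others at 18; and p21mTertCD (+/mTertCD), 2 libraries at 18 months. The titles of the libraries aged 19 and 20 months by their age label read 18 months. Per the series title, mTert is induced in p21-positive cells, and every label except WT carries an altered p21 allele; the labels do not spell out CD. The WT library and the first p21Het and p21mTert libraries have accessions from an earlier block than the other 8 libraries, here called the earlier and the later deposit. Nothing in the labels says which libraries came from separate animals, so p-values measure only the spread between these libraries.

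Libraries held 42038434 to 85988955 UMIs, and 69266 barcodes that carried 1000 to 30000 UMIs, of which no more than 14% were mitochondrial, were kept as cells, with a median of 4133 to 6454 UMIs per library. Mitochondrial UMIs made up 6.30% to 6.58% of a median cell in the earlier deposit and 2.82% to 4.28% in the later, and 961 of 80908 distinct barcodes occurred in more than 1 library. Marker UMIs, none of them from the elastic fibre genes, placed 2190 cells in a mesenchymal gate, 7099 in an endothelial, 5683 in an epithelial, 15349 in a myeloid and 28132 in a lymphoid gate; 10813 cells entered none. Mesenchymal, endothelial and epithelial cells were then clustered without the 10 genes, and a cluster took a cell type name, written with -like, only from at least 3 detected markers of that type. No cluster took the alveolar fibroblast name: mesenchymal cluster 1, 599 cells led by Snhg11, Slc7a10 and Fat3, carried 2 of its markers and is called by number. Levels are UMIs per 1000000 UMIs (CPM) of a gate or class in a library, and means ± SD run over the n libraries with at least 20 cells of it. Levels are compared within a gene and not between genes. Classes differed in UMIs per cell, so the share of a gate's cells in a class is not its share of the gate's UMIs.

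Tert, the gene named as induced, was read first as a check of the labels. Over all cells it was 0.544 to 0.842 CPM in p21Het, 2.00 to 3.28 in p21mTert, 1.90 to 2.59 in p21mTertCD and 1.13 in WT, so that every p21mTert and p21mTertCD library lay above every p21Het library and WT. In the mesenchymal gate no library had more than 9 Tert UMIs. Cdkn1a, the p21 gene, was 136 to 187 CPM in p21Het, 124 to 160.1 in p21mTert, 118 to 174 in p21mTertCD and 155 in WT, with overlapping groups. In the mesenchymal gate, Cdkn1a was 381 CPM in WT and at most 295 in the other 10 libraries.

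Elastic fibre transcripts were concentrated in mesenchymal cells, 1.66% to 6.10% of the cells of a library. The mesenchymal gate held 94.5% of all Fbln1 UMIs, 93.6% of Loxl1, 93.3% of Mfap4, 86.1% of Lox, 82.6% of Fbn1, 64.8% of Eln and 64.4% of Ltbp4. The other fibulins were spread more widely, with 46.0% of Fbln2, 37.3% of Fbln5 and 29.2% of Efemp2 UMIs in the mesenchymal gate. The endothelial gate held 47.7% of the Fbln2 and 38.0% of the Fbln5 UMIs, and the epithelial gate 17.6% of Fbln5 and 36.3% of Efemp2. Compared within libraries, the mean mesenchymal level was above that of each of the other 4 gates for every one of the 10 genes, and 39 of these 40 differences passed a two-sided exact sign-flip test over 11 libraries (Benjamini-Hochberg over the 40, threshold 0.05; the smallest p the design allows is 0.000977). The exception was Fbln2 against the endothelial gate, higher in mesenchyme in 7 of 11 libraries (mean log2 difference 0.54, SD 0.76, exact sign-flip adjusted p = 0.0518). With the stricter gate or without cells marked as doublets that difference passed (adjusted p = 0.0312 and 0.0352 by the same exact test). The 10 genes and the marker lists were chosen with earlier results of these data known, so these tests are not independent support.

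The lymphoid gate was used as a reference, as cells not known for making elastic fibres. Free RNA was not measured, and the source of the lymphoid UMIs was not tested. Median UMIs per cell were 4973 in the lymphoid, 16265 in the epithelial and 3575 in the endothelial gate, so this reference is not an exact floor. There the 10 genes had means of 0.191 to 1.81 CPM. After every cell was thinned to 1000 UMIs, Ltbp4 was seen in 0.224% of lymphoid cells (exact binomial 95% interval 0.172% to 0.286%, counting error only; 1.05% unthinned at a median of 4973 UMIs) and in 59.8% of mesenchymal cells (89.9% unthinned at a median of 8224.5 UMIs). Eln in the epithelial gate (0.401 ± 0.243 SD, n = 11) and Loxl1 in the endothelial gate (0.659 ± 0.598 SD, n = 11) were beside 0.831 ± 0.400 and 0.261 ± 0.0945 of the same genes in the lymphoid gate. Efemp2 in the epithelial gate was higher, at 23.5 ± 3.06 CPM (SD, n = 11) against 0.766 ± 0.204 in the lymphoid gate.

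**Figure D1:**
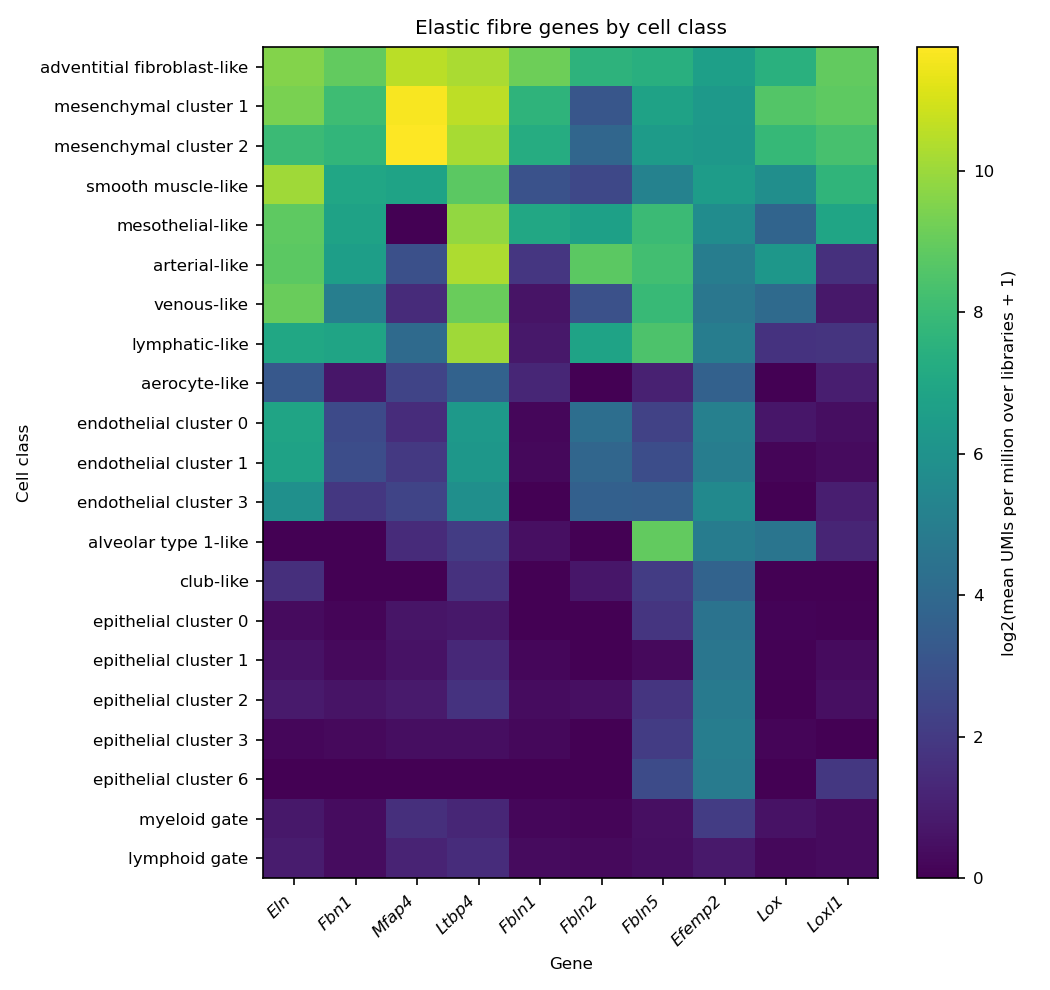
Mean level of each elastic fibre gene (columns) in each cell class with at least 20 cells in 2 or more libraries (rows), as log2 of mean CPM plus 1. Mfap4 is brightest in mesenchymal clusters 1 and 2 and at 0 in mesothelial-like cells, arterial-, venous- and lymphatic-like rows hold Eln, Ltbp4 and Fbln5, and the brightest epithelial cell is Fbln5 in alveolar type 1-like cells.

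Eln encodes tropoelastin, the soluble monomer of elastin (GRCm38 chromosome 5, 134702593 to 134747323, minus strand; coordinates here and below are from GENCODE M21). Its highest mean was in smooth muscle-like cells, at 1077 ± 266 CPM (SD, n = 6), range 822 to 1579.8. Adventitial fibroblast-like cells had 750.4 ± 209.8 CPM (SD, n = 11) and mesenchymal cluster 1 had 663 ± 370.1 CPM (SD, n = 10). Smooth muscle-like cells were above adventitial fibroblast-like cells in 5 of 6 libraries and above cluster 1 in 6 of 6, whereas the last 2 classes overlapped, with cluster 1 the higher in 3 of 10. Venous-like endothelium had 529 ± 217 CPM (SD, n = 11), mesothelial-like cells 456 ± 81.1 (SD, n = 6) and arterial-like endothelium 438 ± 146 (SD, n = 8), all within each other's spread. Lymphatic-like cells (127 ± 40.6 SD, n = 8) and endothelial cluster 0, led by Ntrk2, Sox11 and Kit (114 ± 27.8 SD, n = 11), were lower, and aerocyte-like capillary cells lower still (8.31 ± 4.31 SD, n = 10). Smooth muscle-like cells were 11.1% of the mesenchymal cells and held 23.4% of the gate's Eln UMIs. The 28 pericyte-like cells gave no Eln UMI, which with a floor of 3 counts allows up to 32.5 CPM.

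Among the microfibril genes, Fbn1, the fibrillin that forms the backbone of the microfibril (chromosome 2, 125300594 to 125507993, minus strand), was highest in adventitial fibroblast-like cells, at 480.0 ± 71.9 CPM (SD, n = 11), above mesenchymal cluster 1 (271 ± 60.6 SD, n = 10) in 10 of 10 libraries. Mesenchymal cluster 2, a cluster led by genes of other lineages, had 213 ± 62.3 (SD, n = 7). Smooth muscle-like (122 ± 24.7 SD, n = 6), lymphatic-like (114 ± 15.6 SD, n = 8), mesothelial-like (109 ± 30.1 SD, n = 6) and arterial-like cells (95.9 ± 19.4 SD, n = 8) followed, with arterial-like below lymphatic-like cells in 6 of 7 libraries. Venous-like cells had 31.7 ± 14.7 CPM (SD, n = 11), below arterial-like cells in 8 of 8 libraries. The pericyte-like cells, without an Eln UMI, had 25 Fbn1 UMIs (271 CPM, exact Poisson 95% interval 175 to 399, counting error only).

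Mfap4, a microfibril-associated protein that binds tropoelastin and fibrillin (chromosome 11, 61485431 to 61488900, plus strand), was found mainly in mesenchymal classes. Its highest mean was in mesenchymal cluster 2, at 3455 ± 1029 CPM (SD, n = 7); this cluster of 324 cells was led by Sftpc and hemoglobin genes of other lineages and had few UMIs per cell. Mesenchymal cluster 1 had 3212 ± 885 CPM (SD, n = 10) and adventitial fibroblast-like cells 1481 ± 483 (SD, n = 11), with cluster 1 the higher in 10 of 10 libraries. Smooth muscle-like cells had 113 ± 115 CPM (SD, n = 6). Mesothelial-like cells gave no Mfap4 UMI in 210 cells, which allows up to 0.996 CPM, and the endothelial gate had 3.13 ± 2.28 CPM (SD, n = 11) beside 1.29 ± 0.603 in the lymphoid gate.

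Ltbp4, which binds fibulins and helps join tropoelastin to microfibrils (chromosome 7, 27305136 to 27337692, minus strand), was high in several mesenchymal classes and in vessel and lymphatic endothelium. Mesenchymal cluster 1 had 1524 ± 190.0 CPM (SD, n = 10), arterial-like cells 1264 ± 133 (SD, n = 8), adventitial fibroblast-like cells 1209.8 ± 165 (SD, n = 11), lymphatic-like cells 1094 ± 203 (SD, n = 8) and mesothelial-like cells 918 ± 134 (SD, n = 6). Cluster 1 was above adventitial fibroblast-like cells in 10 of 10 libraries, while arterial-like cells were above them in 5 of 8. Smooth muscle-like cells were lower, at 444 ± 53.2 CPM (SD, n = 6), below adventitial fibroblast-like cells in 6 of 6 libraries. The 28 pericyte-like cells had 260 CPM, from 24 UMIs. Venous-like cells had 542 ± 145 CPM (SD, n = 11), below arterial-like cells in 8 of 8 libraries and below lymphatic-like cells in 8 of 8. Endothelial cluster 0 (80.5 ± 18.6 SD, n = 11) and aerocyte-like cells (11.9 ± 8.12 SD, n = 10) were far lower.

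The 4 fibulin genes differed in the classes that carried them. Fbln1, a protein of basement membranes and elastic fibres (chromosome 15, 85205949 to 85286535, plus strand), was 573 ± 132 CPM (SD, n = 11) in adventitial fibroblast-like cells and 200.3 ± 61.3 (SD, n = 10) in mesenchymal cluster 1, lower in 10 of 10 libraries. Mesothelial-like cells had 132 ± 111 CPM (SD, n = 6) and smooth muscle-like cells 6.71 ± 4.89 (SD, n = 6), and the endothelial gate 0.724 ± 0.494 (SD, n = 11). Adventitial fibroblast-like cells, 28.4% of the mesenchymal cells, held 60.6% of the gate's Fbln1 and 71.1% of its Fbln2 UMIs.

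Fbln2, a fibulin of vessel walls and basement membranes (chromosome 6, 91212455 to 91272540, plus strand), was highest in arterial-like endothelium, at 438 ± 54.6 CPM (SD, n = 8), above adventitial fibroblast-like cells (194 ± 70.9 SD, n = 11) in 8 of 8 libraries. Lymphatic-like (112 ± 35.3 SD, n = 8) and mesothelial-like cells (101 ± 54.2 SD, n = 6) lay within each other's spread. Little was found in mesenchymal cluster 1 (7.79 ± 8.28 SD, n = 10), venous-like (6.47 ± 8.18 SD, n = 11) or smooth muscle-like cells (4.76 ± 4.23 SD, n = 6), and no UMI in the 839 aerocyte-like cells, which allows up to 0.760 CPM. Arterial-like cells were 5.16% of the endothelial cells and held 68.9% of the gate's Fbln2 UMIs.

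Fbln5, which binds elastin and lysyl oxidase-like 1 and is needed for elastic fibre assembly in mice (chromosome 12, 101746565 to 101819055, minus strand), had its highest mean outside the mesenchyme. Alveolar type 1-like cells, the thin epithelial cells of the gas exchange surface, had 495 ± 101 CPM (SD, n = 6), range 301 to 593, above adventitial fibroblast-like cells (171 ± 59.9 SD, n = 11) in 6 of 6 libraries and above venous-like cells in 6 of 6. These were 4 p21mTert libraries (511 to 593), 1 p21mTertCD library (503) and 1 p21Het library (301), without WT. After thinning, 40.4% of the 302 alveolar type 1-like cells had a Fbln5 UMI, against 0.414% of epithelial cluster 0 (73.2% and 5.22% unthinned, at medians of 5174 and 22417 UMIs). Epithelial cluster 0 is led by Adamts1, Acoxl and Myh7. In the alveolar type 1-like cells Eln gave 1 UMI (0.507 CPM, exact Poisson 95% interval 0.0128 to 2.83), and Fbn1 and Fbln2 gave none, which allows up to 1.52 CPM for each of these 2. Lymphatic-like (356 ± 78.1 SD, n = 8), arterial-like (291 ± 98.6 SD, n = 8), mesothelial-like (259 ± 62.4 SD, n = 6) and venous-like cells (239 ± 118 SD, n = 11) had Fbln5 levels with overlapping spreads. Within libraries, lymphatic-like cells were above venous-like cells in 7 of 8 and above arterial-like cells in 6 of 7, and arterial-like above venous-like cells in 7 of 8. Endothelial cluster 0 (3.99 ± 2.80 SD, n = 11) and aerocyte-like cells (1.08 ± 1.59 SD, n = 10) were far lower, beside 0.370 ± 0.169 in the lymphoid gate.

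Efemp2, fibulin-4, which brings lysyl oxidase to tropoelastin (chromosome 19, 5473954 to 5482517, plus strand), was spread across classes. Adventitial fibroblast-like cells had 99.4 ± 9.74 CPM (SD, n = 11), smooth muscle-like cells 88.3 ± 23.1 (SD, n = 6) and mesenchymal cluster 1 77.3 ± 17.9 (SD, n = 10). Arterial-like cells had 30.4 ± 9.98 CPM (SD, n = 8) and alveolar type 1-like cells 29.8 ± 15.5 (SD, n = 6). The gene Mus81 overlaps an exon of Efemp2 on the opposite strand, as Gm30003 does for Eln, Gm9913 for Fbn1, Mapk7 for Mfap4 and AC161119.1 for Lox; the strand setting of the counting is not given in the sources used here.

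Sequence upstream of the start is shown for 2 fibulins with their highest mean in different lineages, Fbln1 in adventitial fibroblast-like and Fbln5 in alveolar type 1-like cells. RefSeq promoter windows (GRCm38.p6) matched 6 of the 10 genes, with 12 windows in all, of which the 250 bases before the start were used. Both fibulins have 2 windows, and the one that touches no annotated exon is printed. The Fbln1 window is chr15:85205699-85205948 on the plus strand and the Fbln5 window chr12:101819120-101819369 on the minus strand, written 5′ to 3′ of the gene, with capitals for GGGCGG, the GC box, or its reverse complement CCGCCC.
Fbln1: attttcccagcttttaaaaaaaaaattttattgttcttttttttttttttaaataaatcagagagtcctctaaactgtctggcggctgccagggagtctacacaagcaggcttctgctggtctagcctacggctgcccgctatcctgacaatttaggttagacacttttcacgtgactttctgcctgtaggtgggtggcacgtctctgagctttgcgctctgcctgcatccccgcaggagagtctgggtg
Fbln5: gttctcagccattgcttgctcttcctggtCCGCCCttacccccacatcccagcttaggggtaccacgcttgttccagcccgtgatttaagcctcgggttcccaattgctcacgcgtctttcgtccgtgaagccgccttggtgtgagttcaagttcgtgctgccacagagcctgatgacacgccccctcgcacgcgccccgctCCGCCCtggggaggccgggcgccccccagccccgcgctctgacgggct
The printed Fbln5 window held 2 GC boxes at a GC content of 65.2%, and the printed Fbln1 window none at 46.4%. In the other windows it was the reverse, with no GC box for Fbln5 at 49.6% and 1 for Fbln1 at 62.4%. GGGCGG on either strand was in 10 of the 12 windows of these genes and in 32.7% of 32851 windows of the same length. Windows of Ltbp4, Efemp2 and Fbln1 overlap one another, so that a GC box can count more than once. The 10 windows with a GC box had a GC content of 58.8% to 79.2%, beside a median of 52.4% over all windows. The part of base content in the count was not tested. TATAAA, the TATA box, CCGGAA, the core of ETS sites, CATTCC, the core of TEAD sites, and TGANTCA, the AP-1 site, searched on both strands, were in 0 of the 12 and in 12.4%, 12.0%, 12.6% and 6.75% of all windows. A match is of letters only.

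The cross-linking enzymes were mesenchymal, with Lox also in arteries. Lox, lysyl oxidase (chromosome 18, 52516067 to 52529867, minus strand), was highest in mesenchymal cluster 1, at 389.8 ± 192 CPM (SD, n = 10), above adventitial fibroblast-like cells (174 ± 80.7 SD, n = 11) in 10 of 10 libraries. Arterial-like cells had 73.0 ± 32.0 CPM (SD, n = 8), above venous-like cells (15.5 ± 13.8 SD, n = 11) in 8 of 8 libraries, and smooth muscle-like cells 54.6 ± 18.3 (SD, n = 6), within the arterial spread. Alveolar type 1-like cells had 22.7 ± 9.91 CPM (SD, n = 6), above the endothelial gate in 6 of 6 libraries. Loxl1, the lysyl oxidase that Fbln5 binds (chromosome 9, 58287738 to 58313186, minus strand), was 487 ± 55.4 CPM (SD, n = 11) in adventitial fibroblast-like cells and 463 ± 52.1 (SD, n = 10) in mesenchymal cluster 1, which was the higher in 4 of 10 libraries. Smooth muscle-like cells had 205 ± 40.4 CPM (SD, n = 6) and mesothelial-like cells 119.7 ± 36.2 (SD, n = 6).

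**Figure D2:**
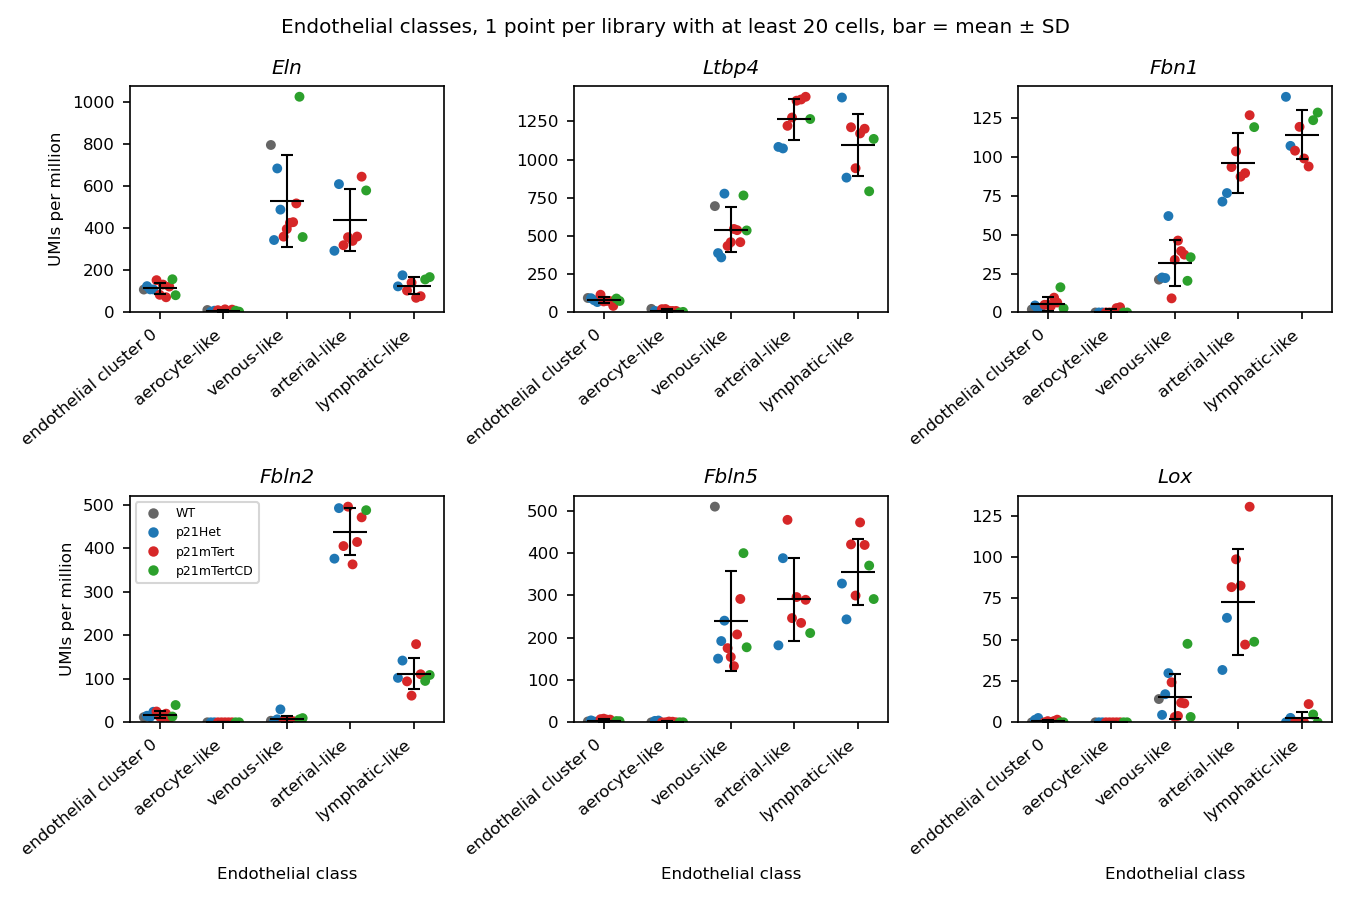
Levels of elastic fibre genes (CPM, linear axes from 0) in endothelial classes. Each point is a library with at least 20 cells of the class, coloured by genotype label, with mean ± SD; Fbln2 and Lox are highest in arterial-like cells, Fbln5 is near 0 in cluster 0 and aerocyte-like cells, and Eln is similar in venous- and arterial-like cells.

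Within the endothelium, arterial-like cells were above endothelial cluster 0 in 8 of 8 libraries for Eln, Fbn1, Ltbp4, Fbln2, Fbln5 and Lox, by a mean log2 ratio of 1.92, SD 0.64, for Eln and 4.94, SD 0.67, for Fbln5 (each with 5 CPM added to both levels). Arterial-like cells exceeded venous-like cells in Eln in 2 of 8 libraries (mean log2 ratio -0.035, SD 0.35) but in Fbln2 in 8 of 8 (mean log2 ratio 5.70, SD 0.42). Venous-like cells, 12.5% of the endothelial cells, held 43.7% of the gate's Eln and 39.0% of its Fbln5 UMIs. Because the classes were made from the same cells, these class comparisons are descriptions and carry no test.

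Over 21 classes, the genes of most similar profile were found by Pearson's r of log2 of mean CPM plus 5, among 11627 genes that reached 20 CPM in a class. The classes share libraries, so r is a description. For Eln they were Hoxb2 (r = 0.974), Fkbp10 (r = 0.965) and Casp12 (r = 0.963), for Fbn1 P3h3 (r = 0.979), Mgp (r = 0.964) and Galnt15 (r = 0.960), for Mfap4 Tcf21 (r = 0.989), Inmt (r = 0.988) and Foxf2 (r = 0.988) and for Ltbp4 Eln (r = 0.961), Fkbp10 (r = 0.961) and Hoxa7 (r = 0.959). Fbln1 was closest to Olfml1 (r = 0.987), Clec3b (r = 0.986) and Cpxm1 (r = 0.982). Fbln2, Fbln5 and Efemp2 had less similar neighbours: Thsd7a (r = 0.865), Flrt2 (r = 0.863) and Plat (r = 0.858) for Fbln2, Cyr61 (r = 0.863), Tgfb2 (r = 0.858) and Hspg2 (r = 0.858) for Fbln5, and Maged2 (r = 0.909), Nenf (r = 0.905) and Wtip (r = 0.882) for Efemp2. Lox was closest to Spon1 (r = 0.940), Ccdc8 (r = 0.936) and Art4 (r = 0.929), and Loxl1 to the collagen I genes and Vgll3: Col1a1 (r = 0.992), Col1a2 (r = 0.992) and Vgll3 (r = 0.990).

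Genotype labels were compared first in the mesenchymal gate, with 103 to 382 cells per library; the series title names emphysema, in which elastic fibres are lost. None of the 10 genes passed the threshold in any of 3 contrasts (edgeR quasi-likelihood test on summed UMIs, Benjamini-Hochberg over all genes tested, adjusted p under 0.05). For p21mTert minus p21Het 0 of 10 passed beside 0.00912% of 10968 genes, for p21mTert minus p21mTertCD 0 of 10 beside 0.0182%, and for p21mTertCD minus p21Het 0 of 10 beside 0%. DESeq2 called 0, 0 and 0 of the 10. At an unadjusted p under 0.05 edgeR had 2 (Fbln2 and Ltbp4), 2 (Fbn1 and Fbln2) and 1 (Lox) of the 10, beside 4.8%, 4.56% and 5.14% of all genes tested. The median log2 fold change of the 10 was -0.11, -0.23 and 0.18 in the 3 contrasts, beside -0.0019, 0.0094 and -0.0059 over all genes tested. Of the 2190 mesenchymal cells 392 were marked as doublets, a larger share than the 4237 of 69266 over all cells. Without those 392 cells the medians were -0.093, -0.11 and 0.064. Then 1, 1 and 0 of the 10 had an unadjusted p under 0.05 by edgeR, so Lox no longer did in the third contrast.

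Eln in the mesenchymal gate was 532, 800.0 and 729 CPM in the p21Het libraries, 822, 464, 661, 633 and 653 in p21mTert, 983 and 614 in p21mTertCD and 462 in WT (exact Poisson 95% interval 422 to 505, counting error only, as for all WT intervals here). The 3 replicated groups overlapped. The log2 fold change was -0.10 (SE 0.21) for p21mTert minus p21Het, with a 95% interval of -0.55 to 0.35. It was -0.35 (SE 0.23) for p21mTert minus p21mTertCD, interval -0.86 to 0.16, and 0.25 (SE 0.26) for p21mTertCD minus p21Het, interval -0.31 to 0.81 (edgeR adjusted p = 1.00, 1.00 and 0.984). The sign of each turned with 1 library: the first was 0.084 without the second p21Het library, and without the first p21mTertCD library the second was 0.082 and the third -0.19. Of the 30 fitted values of the 10 genes in the 3 contrasts, 12 changed sign when 1 library was left out.

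Fbln2 had the largest fitted difference of the 10 in both contrasts with p21mTert. It was 92.3, 85.3 and 177 CPM in p21Het, 71.0, 54.0, 89.3, 31.9 and 66.5 in p21mTert, 165 and 98.7 in p21mTertCD and 92.6 in WT (75.1 to 113). Of the p21mTert libraries 4 lay below all p21Het libraries, the third lay among them, and all 5 lay below both p21mTertCD libraries. The log2 fold change was -0.93 (SE 0.38) for p21mTert minus p21Het (unadjusted p = 0.0398, edgeR adjusted p = 0.969) and -0.54 without the third p21Het library. For p21mTert minus p21mTertCD it was -1.12 (SE 0.42, unadjusted p = 0.0272, edgeR adjusted p = 1.00) and -0.67 without the first p21mTertCD library. For p21mTertCD minus p21Het it was 0.20 (SE 0.46). The share of adventitial fibroblast-like cells, the class with most of the gate's Fbln2 UMIs, was lowest in the same library as Fbln2, the fourth p21mTert, and highest in the same library, the third p21Het: 32.7%, 33.0% and 48.0% of the gate in p21Het, 33.0%, 23.2%, 27.0%, 17.8% and 23.3% in p21mTert, 35.9% and 28.8% in p21mTertCD and 31.1% in WT.

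Within adventitial fibroblast-like cells alone, 31 to 91 per library, Fbln2 was 193, 177 and 296 CPM in p21Het, 206, 147, 169, 106 and 78.6 in p21mTert, 309.9 and 235 in p21mTertCD and 215 in WT. The p21mTert libraries again lay below both p21mTertCD libraries and overlapped p21Het. The log2 fold change was -0.64 (SE 0.28) for p21mTert minus p21Het (unadjusted p = 0.0384) and -0.98 (SE 0.31) for p21mTert minus p21mTertCD (unadjusted p = 0.00649), with an edgeR adjusted p of 1.00 and 1.00. The first was -0.40 without the third p21Het library; the second was -0.71 without the first p21mTertCD library. With no filter on low counts the second contrast passed (log2 fold change -1.01, edgeR adjusted p = 0.00370), the only call of an elastic fibre gene in 411 contrasts over all fits and settings run. Other genes also passed at that setting, and their share is not given here, so the call is not particular to Fbln2.

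Among the microfibril genes, Ltbp4 was 1065, 880.2 and 1034 CPM in p21Het, 1235, 1054, 1131, 1305 and 1208 in p21mTert, 840.1 and 1275 in p21mTertCD and 936 in WT (878 to 996). Of the 5 p21mTert libraries 4 lay above all p21Het libraries (log2 fold change 0.27 ± 0.11 SE, unadjusted p = 0.0298, edgeR adjusted p = 0.969). The other contrasts of Ltbp4 were 0.15 (SE 0.13) for p21mTert minus p21mTertCD and 0.13 (SE 0.14) for p21mTertCD minus p21Het. Fbn1 was 227, 306 and 326 CPM in p21Het, 233 to 276 over the p21mTert libraries, 337 and 338 in p21mTertCD and 225 in WT (197 to 256). Both p21mTertCD libraries lay above every other library, with a log2 fold change of -0.42 (SE 0.15) for p21mTert minus p21mTertCD (unadjusted p = 0.0122, edgeR adjusted p = 0.991). The log2 fold change of Fbn1 was -0.16 (SE 0.13) for p21mTert minus p21Het and 0.26 (SE 0.16) for p21mTertCD minus p21Het. Within adventitial fibroblast-like cells, the class with the highest Fbn1, the replicated groups overlapped. Fbn1 there was 372 to 484 CPM in p21Het, 451 to 503 in p21mTert, and 471 and 664 in p21mTertCD. The part of the class shares in the gate's Fbn1 level was not tested.

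Mfap4 was 999, 1652 and 821 CPM in p21Het, 1491, 1395, 1223, 2907 and 1714 in p21mTert, 1957 and 1569 in p21mTertCD and 949.9 in WT (892 to 1011). The groups overlapped (p21mTert minus p21Het log2 fold change 0.58 ± 0.35 SE, edgeR adjusted p = 0.969), with -0.050 (SE 0.39) for p21mTert minus p21mTertCD and 0.63 (SE 0.42) for p21mTertCD minus p21Het. The 95% interval of the first was -0.21 to 1.37. It was 0.32 without the fourth p21mTert library, 0.37 without the third p21Het library and 1.00 without the second p21Het library, and the value for p21mTertCD minus p21Het was 0.41 to 1.05 leaving out each library in turn. The fourth p21mTert library, the highest, also had the largest share of mesenchymal cluster 1, where Mfap4 was higher than in adventitial fibroblast-like cells. The third p21Het library, the lowest, had the smallest share. The share was 30.3%, 23.2% and 7.32% of the gate in p21Het and 31.1%, 26.2%, 24.3%, 38.2% and 21.8% in p21mTert. It was 18.6% and 31.9% in p21mTertCD and 28.6% in WT. Among the other libraries the cluster 1 shares and the Mfap4 levels did not fall in the same order. Mesenchymal cluster 2, with the highest mean Mfap4 but few UMIs per cell, was 5.45%, 15.6% and 5.69% of the gate in p21Het. It was 10.7%, 17.2%, 13.2%, 19.6% and 18.8% in p21mTert, 22.1% and 14.6% in p21mTertCD and 7.56% in WT. The part of these class shares in the Mfap4 and Fbln2 levels was not tested.

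Lox was 82.9, 211 and 152 CPM in p21Het, 116 to 213 over the p21mTert libraries, 345 and 223 in p21mTertCD and 111 in WT (91.5 to 133). The p21mTertCD libraries were the highest of all 11, with a log2 fold change of 0.93 (SE 0.41) for p21mTertCD minus p21Het (unadjusted p = 0.0479, edgeR adjusted p = 0.957). This order did not hold without the mesenchymal clusters led by genes of other lineages: the second p21Het library then had 219.7 CPM, above 216.8 in the second p21mTertCD library, and 0 of the 10 genes had an unadjusted p under 0.05 in this contrast, while the Lox log2 fold change was 0.94. With every cluster kept and without the first p21mTertCD library it was 0.53, and leaving out each library in turn gave 0.53 to 1.35. The log2 fold change with every library and cluster was 0.19 (SE 0.34) for p21mTert minus p21Het and -0.75 (SE 0.37) for p21mTert minus p21mTertCD, the latter -0.35 without the first p21mTertCD library. Loxl1 ranged from 306 to 418 CPM over the 11 libraries, with log2 fold changes of 0.039 (SE 0.12), -0.13 (SE 0.14) and 0.17 (SE 0.15) in the 3 contrasts and a 95% interval of -0.22 to 0.30 in the first. Of the other fibulins, Fbln1 ranged from 183 to 382 CPM, with -0.22 (SE 0.15), -0.34 (SE 0.17) and 0.12 (SE 0.19) in the same contrasts. Fbln5 ranged from 89.7 to 226 CPM, with -0.37 (SE 0.20), -0.045 (SE 0.23) and -0.32 (SE 0.25), and Efemp2 from 66.9 to 96.4 CPM, with -0.11 (SE 0.13), -0.098 (SE 0.14) and -0.014 (SE 0.16). The replicated groups overlapped for these 4 genes in every contrast.

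**Figure D3:**
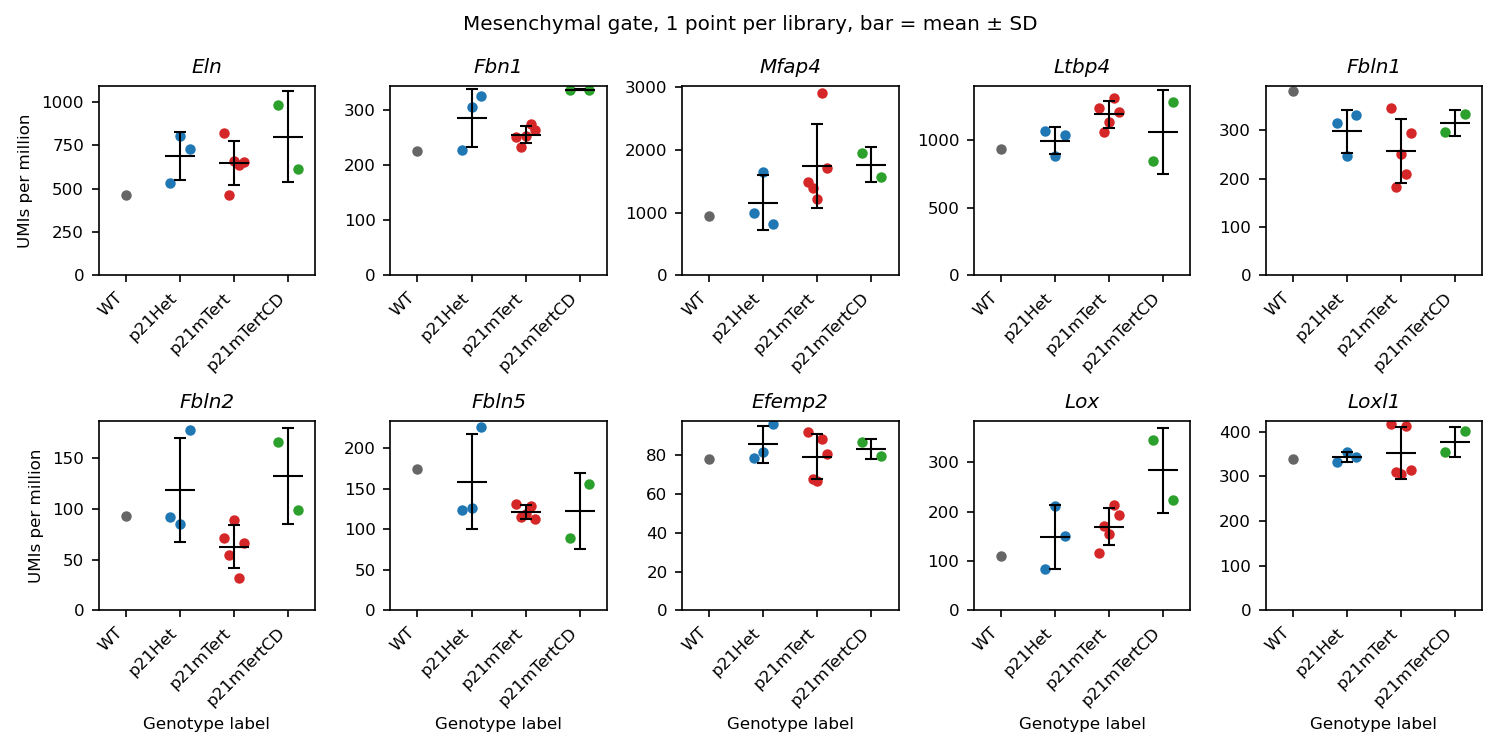
Level of each elastic fibre gene in the mesenchymal gate (CPM, linear axes from 0) by genotype label. Each point is a library, with mean ± SD where a label has more than 1; the p21mTertCD libraries are the highest for Fbn1 and, with every cluster kept, for Lox, and 4 of 5 p21mTert libraries lie below all others for Fbln2.

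**Figure D4:**
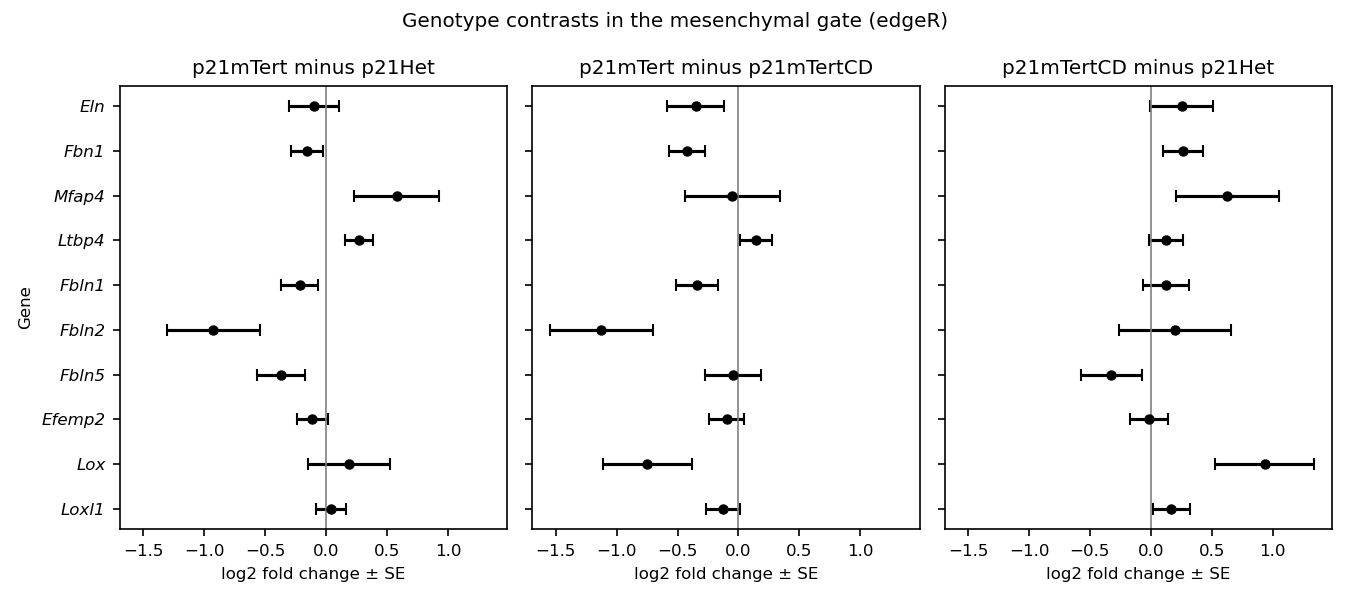
Fitted log2 fold change ± SE from edgeR for each gene in the mesenchymal gate in the 3 genotype contrasts. Fbln2 has the most negative value in both contrasts with p21mTert and Lox the most positive in p21mTertCD minus p21Het, and none passed the adjusted threshold.

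Counted by groups whose libraries do not overlap, 0 of 10 genes in the mesenchymal gate separated p21mTert from p21Het, beside 2.88% of all genes tested. Against p21mTertCD, 3 of 10 genes separated from p21mTert (Fbn1, Fbln2 and Lox, all lower in p21mTert), beside 8.94%. Between p21mTertCD and p21Het 2 of 10 separated (Fbn1 and Lox, both higher in p21mTertCD), beside 17.9%; the Lox groups overlapped once the clusters led by genes of other lineages were left out. In adventitial fibroblast-like cells the counts were 0, 1 (Fbln2, lower in p21mTert) and 1 (Efemp2, higher in p21mTertCD) of 10, beside 2.76%, 7.24% and 17.6% of genes in the same order. In the other populations described next none of the genes tested separated, beside 8.32%, 8.9% and 29.5% in mesenchymal cluster 1, 1.96%, 11.2% and 14.4% in the endothelial, 3.16%, 13.5% and 11.7% in the epithelial and 2.39%, 8.12% and 9.18% in the myeloid gate, and 3.3%, 20.2% and 12.5% over all cells. The contrasts share libraries.

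No elastic fibre gene passed in the other populations. In adventitial fibroblast-like cells 0 of 10 passed in each contrast, beside 0%, 0% and 0% of 8549 genes, in the order p21mTert against p21Het, p21mTert against p21mTertCD, p21mTertCD against p21Het. In mesenchymal cluster 1, without the third p21Het library, which had under 20 of these cells, 0 of 9 passed (Fbln2 was below the filter on low counts), beside 0.0304%, 0.0608% and 0.0152%. In the endothelial gate 0 of 8 passed (Fbln1 and Loxl1 were below the filter), beside 0.0089%, 0.0801% and 0.0089%; in the epithelial gate 0 of 3 (Ltbp4, Fbln5 and Efemp2), beside 0.0537%, 0.0307% and 0.00768%; in the myeloid gate 0 of 4 (Eln, Mfap4, Ltbp4 and Efemp2), beside 0.00789%, 0.0237% and 0.00789%. Over all cells 0 of 10 passed, beside 0.0114%, 0.00571% and 0.12%. Over these 7 populations 10 of 162 edgeR tests of these genes had an unadjusted p under 0.05, beside 5.83% of the tests of all genes, and DESeq2 called 0. Some of these populations contain others, so the tests are not independent.

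Endothelial Fbln2 and Fbn1 are given for their unadjusted p, a choice made after the values were seen. Fbln2 in the endothelial gate stood in another order than in the mesenchymal gate. It was 58.1, 42.9 and 53.9 CPM in p21Het, 76.3, 56.1, 56.2, 60.9 and 68.6 in p21mTert, 45.9 and 57.2 in p21mTertCD and 56.8 in WT (45.6 to 69.9), with the p21mTert libraries overlapping both other groups (p21mTert minus p21Het log2 fold change 0.32 ± 0.10 SE, unadjusted p = 0.00646, edgeR adjusted p = 1.00). With no barcode filter this log2 fold change was 0.12. The difference between the 2 gates in this contrast was not tested. Arterial-like cells, which held most of the gate's Fbln2 UMIs, were 2.45% to 7.02% of the endothelial cells in p21Het, 4.48% to 7.92% in p21mTert and 4.70% to 5.52% in p21mTertCD. Within arterial-like cells Fbln2 was 434 ± 82.0 CPM in p21Het (SD, n = 2) and 429 ± 53.2 in p21mTert (SD, n = 5). It was 487 CPM in p21mTertCD (n = 1). The part of the arterial-like share in the gate's Fbln2 level was not tested. Endothelial Fbn1 had a p21mTertCD minus p21Het log2 fold change of 0.60 (SE 0.24, unadjusted p = 0.0230, edgeR adjusted p = 0.978), and 0.34 without the first p21mTertCD library.

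Over all cells, the level of a mesenchymal gene contains the share of mesenchymal cells in the library. The mesenchymal share was 2.65%, 3.24% and 2.10% in p21Het, 1.66%, 3.55%, 3.00%, 6.10% and 2.82% in p21mTert, 2.21% and 5.14% in p21mTertCD and 2.18% in WT. With so few libraries no contrast in the share could reach an adjusted p under 0.05 in a two-sided exact permutation test, so the values are given as a description. For p21mTert minus p21Het the difference was 0.760 percentage points (exact p = 0.589, adjusted over the 3 contrasts p = 0.900, smallest p allowed 0.0179), for p21mTert minus p21mTertCD -0.255 (exact p = 0.952, adjusted 0.952, smallest 0.0476), and for p21mTertCD minus p21Het 1.01 (exact p = 0.600, adjusted 0.900, smallest 0.100).

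Across the 11 libraries the all-cell level of each gene was positively correlated with that share. The UMIs of the gate are part of the all-cell sum, so this relation is in part built in, and the correlations are given as a description with no test. For Loxl1 Pearson's r was 0.974 and Spearman's rho 0.827, and r was 0.860 without the fourth p21mTert and the second p21mTertCD library, farthest from the median share. For Eln r was 0.927, rho 0.900 and r without those 2 libraries 0.742. For Fbln1 the relation rested on those 2 libraries, with r of 0.810, rho of 0.373 and r of 0.178 without them. For the other 7 genes r was 0.769 to 0.961, rho 0.745 to 0.927 and r without the 2 libraries 0.524 to 0.826. Within the 8 libraries of the later deposit r was 0.685 to 0.983 over the 10 genes; the earlier deposit holds 3 libraries, too few for a correlation. In sums over all cells, more mesenchymal cells and more RNA of a gene per cell cannot be told apart.

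**Figure D5:**
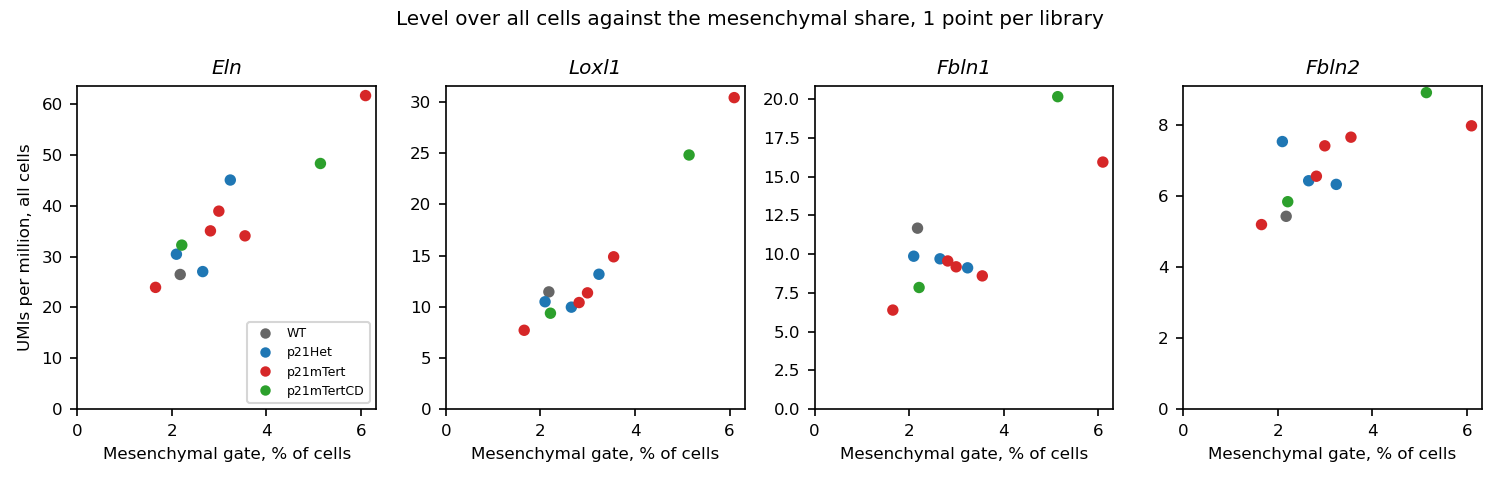
Level in CPM over all cells (vertical axes, from 0) against the percentage of cells in the mesenchymal gate (horizontal axes) for Eln, Loxl1, Fbln1 and Fbln2. Each point is a library coloured by genotype label; the fourth p21mTert and second p21mTertCD libraries lie far to the right, and without them r was 0.178 for Fbln1.

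The other genes of the pathway did not pass a test either. They were read from a list of 16 further microfibril, EMILIN, LTBP, lysyl oxidase-like, fibulin and ADAMTS-related genes. In the mesenchymal gate 13 of 16 passed the filter on low counts and 0 of 13 passed the edgeR threshold in each contrast. At an unadjusted p under 0.05 there were 2 (Loxl2 and Mfap2) for p21mTert minus p21Het, 3 (Emilin1, Ltbp1, Thsd4) for p21mTert minus p21mTertCD and 3 (Ltbp1, Mfap2, Thsd4) for p21mTertCD minus p21Het of the 13, beside the 4.8%, 4.56% and 5.14% of all genes. The list's median log2 fold change was -0.13, -0.24 and 0.031, beside -0.0019, 0.0094 and -0.0059 over all genes tested. Those names, and Mfap2, Ctss and Mmp12 below, were chosen after their values were seen. Efemp1, fibulin-3, was 589.7 ± 105 CPM in the mesenchymal gate (SD, n = 11). Mfap5, a microfibril glycoprotein, was 336 ± 64.7 there and 698 ± 143 in adventitial fibroblast-like cells (SD, n = 11). Mfap2, another microfibril glycoprotein, was higher in the endothelial (139 ± 13.8) than in the mesenchymal gate (73.5 ± 16.5; SD, n = 11; the difference was not tested).

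Of a list of 15 elastin-degrading proteases and protease inhibitors, 11 were tested in the mesenchymal gate; 0 passed the edgeR threshold and 0 had an unadjusted p under 0.05 in each contrast. The list's median log2 fold change was -0.19 for p21mTert minus p21Het, -0.16 for p21mTert minus p21mTertCD and 0.032 for p21mTertCD minus p21Het. In the mesenchymal gate the inhibitors Cst3, cystatin C, and Timp3, a metalloproteinase inhibitor, were 3192 ± 338 and 1721 ± 432 CPM (SD, n = 11). Among proteases of the myeloid gate, Ctss, cathepsin S, was 1618 ± 219.7 CPM and Mmp12, macrophage elastase, 68.8 ± 38.7 (SD, n = 11). Over the 7 populations and 3 contrasts edgeR called 0 genes of either list. At an unadjusted p under 0.05 there were 26 of 243 tests of the first list and 15 of 228 of the second (10.7% and 6.58%), beside 5.83% of the tests of all genes. The populations overlap and the contrasts share libraries, so these tests are not independent and the shares are a description.

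Markers of other lineages were low inside the mesenchymal gate, in part by construction. A cell entered only if mesenchymal markers made up at least 80% of its lineage marker UMIs. Low sums of these lists therefore do not measure purity, and the gate held clusters led by genes of other lineages. The 9 endothelial markers summed to 107 to 123 CPM in p21Het, 76.6 to 106 in p21mTert, 78.6 to 79.6 in p21mTertCD and 127 in WT, beside at least 11320 in the endothelial gate; every p21Het library lay above every p21mTert and p21mTertCD library. The 10 epithelial markers summed to 76.9 to 117, 69.5 to 133, 40.4 to 47.8 and 157 CPM in the same order, the 6 myeloid markers to 35.9 to 55.6, 33.5 to 85.9, 61.8 to 68.4 and 37.2, and the 12 lymphoid markers to 9.08 to 93.2, 30.3 to 93.6, 19.1 to 47.5 and 90.7. No marker of the 4 lists was at 0 UMIs in the gate. Their part in the differences between labels was not tested.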

How the data were processed

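Raw UMI counts per gene and barcode, made with Cell Ranger on mm10 per the submitters' processing notes, were used as deposited by the authors; the design text and the matrix headers name different Cell Ranger versions. Lungs were dissociated with enzymes and red cells lysed, per the labels' protocols. Samples were grouped by their titles, and age, deposit and replicate numbers were taken from the labels and accessions. The 10 genes and the gene and marker lists were chosen with earlier results of these data known.

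Barcodes were kept with 1000 to 30000 UMIs, no more than 14% of them mitochondrial. A cell entered a lineage gate with at least 3 marker UMIs from at least 2 genes of that lineage, making up at least 80% of its lineage marker UMIs; 4011 cells lay near the edge of a gate (within 1 marker UMI, or 10 points below the share), 87 of them of the mesenchymal gate. Mesenchymal, endothelial and epithelial cells were clustered with scanpy 1.11.5 and leidenalg 0.10.2 on 2000 variable genes and 30 principal components at a resolution of 0.3, leaving out the 10 genes. Cells marked as doublets were kept in the main analysis and left out in an alternative (Scrublet scores, 4237 cells marked, 392 of them in the mesenchymal gate). The number marked was preset at 0.8% of a library's cells per 1000 barcodes, taking the highest scores. That made 4.55% to 8.42% of cells per library, while Scrublet's own threshold called 0.0305% to 3.59%.

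UMIs were summed per library and population, over libraries with at least 20 cells. Sums were tested with edgeR 4.0.16 under R 4.3.3, using filterByExpr, TMM factors and a robust quasi-likelihood fit over the 10 libraries of the 3 replicated labels, with Benjamini-Hochberg adjustment over all genes tested and a threshold of 0.05. The 95% intervals of fold changes use the fit's own degrees of freedom. The single WT library entered no fit. Shares of cells and gate levels were tested with exact permutation and sign-flip tests (scipy 1.17.1). The edgeR step was tested on simulated data.

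Alternatives were DESeq2 1.42.0, library totals without TMM, no filter on low counts, a deposit term, the later deposit alone, a replicate block, a stricter gate (at least 6 marker UMIs and 90%), no barcode filter, doublets left out, equal weight per class, a pseudocount of 1 CPM in place of 5, and each library left out. Besides the 10 genes, the text names the 3 genes of most similar profile to each, and from each of 2 lists the genes called or, with none called, the 2 of highest mesenchymal level; other genes of these lists are named where the text says that they were chosen after their values were seen. Library depth is given with the results; intervals on counts and shares of cells, and floors of 3 counts, cover counting error only.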

Additional observations from a re-analysis of the deposited data

Results flagged for a closer look

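Over all cells, Mfap4 in the fourth p21mTert library was 217 CPM, far above the other p21mTert libraries, whose range was 27.7 to 68.2 CPM. That library also had the largest mesenchymal share of the 11, 6.10% of its cells. In the endothelial gate, Efemp2 in the first p21mTert library was 30.8 CPM, against 24.9 to 26.5 CPM in the other 4. Of 40 groups examined for a library far from the rest, 2 had one by Dixon's 95% critical values, which by their definition chance exceeds in about 1 in 20 groups.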

How the results depend on the processing

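The count of elastic fibre genes called was 0 in every population and contrast under every setting run, except 1 in adventitial fibroblast-like cells for p21mTert minus p21mTertCD with no filter on low counts. Over all genes edgeR and DESeq2 gave, for p21mTert against p21Het, p21mTert against p21mTertCD and p21mTertCD against p21Het in turn, 2 and 31, 1 and 594, 21 and 184 calls over all cells, 1 and 2, 2 and 4, 0 and 3 in the mesenchymal gate, 1 and 8, 9 and 56, 1 and 34 in the endothelial, 7 and 20, 4 and 16, 1 and 5 in the epithelial and 1 and 18, 3 and 19, 1 and 12 in the myeloid gate. The mesenchymal share for p21mTert minus p21mTertCD was 0.187 percentage points in the later deposit alone and -1.72 to 1.21 leaving out each library; for p21mTertCD minus p21Het it was -0.452 to 2.48. The Fbln2 difference between the mesenchymal and endothelial gates passed with the stricter gate (0.59) and without marked doublets (0.58). The replicate numbers in the titles, which the WT and the first p21Het and p21mTert libraries lack, did not meet the rule for pairing: the 4 pairs of libraries with the same number had correlations of 0.175, -0.174, 0.149 and 0.0464 over 6602 genes, and the replicate block, fitted on 5 libraries, called 0 elastic fibre genes. Mesenchymal fold changes of 572 gene and setting pairs kept their direction and side of the threshold and 38 changed sign, none of them past the threshold; the cause was not tested. The sign changes for p21mTert minus p21Het were Loxl1 at -0.061 in the later deposit, -0.12 with the block, -0.072 with no barcode filter and -0.051 with equal class weight, and Lox at -0.0057 in the later deposit and -0.071 with the block; leaving out each library gave -0.29 to 0.084 for Eln, -0.023 to 0.12 for Loxl1 and -0.12 to 0.61 for Lox. For p21mTert minus p21mTertCD they were Ltbp4 at -0.16 with the block, Loxl1 at 0.010 without doublets, Fbln5 at 0.00027 with the deposit term, and Mfap4 at 0.024 with the deposit term, 0.018 in the later deposit, 0.20 with the block and 0.072 without doublets; leaving out each library gave -0.69 to 0.082 for Eln, -0.087 to 0.42 for Ltbp4, -0.31 to 0.17 for Mfap4, -0.34 to 0.36 for Fbln5 and -0.21 to 0.0045 for Efemp2. For p21mTertCD minus p21Het they were Eln at -0.32 and Fbln5 at 0.013 with the block, Fbln1 at -0.12 without doublets and -0.029 with no barcode filter, and Efemp2 at 0.0041 with no filter on low counts, 0.061 with the stricter gate and 0.022 without the clusters led by other lineages; leaving out each library gave -0.19 to 0.59 for Eln, -0.26 to 0.59 for Fbln2, -0.15 to 0.36 for Ltbp4 and -0.12 to 0.10 for Efemp2. Where an arm held 1 library, it was assumed to vary like the others. Fits on alveolar fibroblast-like cells were not run because no cluster took that name; the fits on mesenchymal cluster 1, and leaving out clusters led by other lineages, were chosen after seeing the data. The replicate block could not be fitted in mesenchymal cluster 1.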
